A study of Mus musculus with 12 samples.

Results

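Ermap and 7 of its butyrophilin relatives (Btn1a1, Btn2a2, Btnl1, Btnl2, Btnl4, Btnl6 and Btnl9) were followed by gene symbol in RNA sequencing of mouse colon, as 8 of the 27179 genes measured. Ermap was chosen by its higher TPM in the ablated group of these same libraries, and the others as its relatives by name. Its own rise is therefore a description with no test, and the question is whether the relatives share it. The 12 libraries came from full-thickness colon cut out at the ink-marked place where diphtheria toxin had been injected (0.33 ng/µL in 4 µL, with 10% India ink). All mice had a laparotomy and the toxin injection, and all carried R26-iDTR, a diphtheria toxin receptor at the Rosa26 locus that Cre recombinase switches on. The 5 control libraries were R26-iDTR without Cre. The 7 ablated libraries were BAF53b-Cre::R26-iDTR, in which the promoter of the neuronal gene Actl6b (BAF53b) drives Cre. Every ablated mouse also carried the Cre transgene, so loss of neurons and presence of the transgene cannot be told apart. Age, time since injection and the number of mice behind a library were not given in the sources used here, so a p-value here covers only variation from library to library.

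Butyrophilins are membrane proteins of the immunoglobulin superfamily, related to the B7 costimulatory molecules. In the mouse gut, Btnl1 is made by enterocytes and pairs at the cell surface with Btnl6 or Btnl4, and these pairs shape the local γδ T cells of the epithelium. Btnl2 and Btn2a2 are known to dampen T cell activation, and Btn1a1 takes part in the release of milk fat. Ermap (erythroid membrane-associated protein) belongs to the same family and is best known from red cell precursors; its human counterpart carries the Scianna blood group antigens.

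The members lie on 4 chromosomes (mm10). Ermap (ENSMUSG00000028644) is at chr4:119175457-119190011 on the minus strand. Btnl2 at chr17:34354822-34369495 (plus strand), Btnl1 at chr17:34377132-34386028 (plus), Btnl4 at chr17:34466562-34477318 (minus) and Btnl6 at chr17:34507804-34517352 (minus) form a cluster beside the class II histocompatibility genes. Btn1a1 at chr13:23456992-23465901 and Btn2a2 at chr13:23477676-23488857 are neighbours on the minus strand, and Btnl9 is at chr11:49165585-49187159, also minus. All 8 are annotated as protein coding.

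The 250 bases before the start are shown for Ermap, which differed so widely between the groups, and for Btnl1, Btnl4 and Btnl6, which moved together across libraries. They are from RefSeq on GRCm38.p6, read 5′ to 3′ on the strand of each gene, and the table used held 7 of the 8 members. In Ermap (chr4:119189996-119190245) the capitals mark a GATAA match on the opposite strand, the core read by GATA factors. In Btnl1 (chr17:34376882-34377131) they mark a TTTAT match, a core read by Cdx factors, and a CAAAG match, found in Hnf4 sites. In Btnl4 (chr17:34475938-34476187) and Btnl6 (chr17:34517353-34517602) they mark the bases that differ or are unpaired between those windows. The Btnl4 window also lies within an intron of a longer noncoding Btnl4 transcript.
Ermap: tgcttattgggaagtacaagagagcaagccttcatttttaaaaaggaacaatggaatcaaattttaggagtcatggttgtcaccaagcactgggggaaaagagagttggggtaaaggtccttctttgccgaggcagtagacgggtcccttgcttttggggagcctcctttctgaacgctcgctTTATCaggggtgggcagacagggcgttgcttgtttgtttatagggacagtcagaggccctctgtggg
Btnl1: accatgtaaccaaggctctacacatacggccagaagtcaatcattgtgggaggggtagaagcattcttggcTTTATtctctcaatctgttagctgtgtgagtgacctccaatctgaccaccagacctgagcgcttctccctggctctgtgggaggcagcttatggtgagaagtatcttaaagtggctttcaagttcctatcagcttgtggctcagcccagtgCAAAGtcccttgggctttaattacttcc
Btnl4: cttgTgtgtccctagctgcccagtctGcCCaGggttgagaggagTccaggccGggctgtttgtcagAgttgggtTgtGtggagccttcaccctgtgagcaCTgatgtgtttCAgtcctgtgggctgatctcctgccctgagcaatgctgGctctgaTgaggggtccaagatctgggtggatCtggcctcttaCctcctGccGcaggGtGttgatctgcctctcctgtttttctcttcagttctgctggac
Btnl6: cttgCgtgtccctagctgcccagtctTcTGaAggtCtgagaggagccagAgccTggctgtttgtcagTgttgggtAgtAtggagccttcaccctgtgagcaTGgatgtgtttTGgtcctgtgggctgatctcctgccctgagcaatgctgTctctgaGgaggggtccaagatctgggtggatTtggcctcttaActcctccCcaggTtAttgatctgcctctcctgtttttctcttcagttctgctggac

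The Btnl4 and Btnl6 windows were near copies, with 228 of 248 aligned bases identical (91.9%). Btnl1 matched Btnl4 at 60.9% and Btnl6 at 61.9% of aligned bases. The searches took both strands. Ermap had 1 GATAA match, 67 bases before the start, which overlaps a TTTAT match on the other strand. GATAA occurs in 22.6% of 32851 promoter windows of this length, TTTAT in 37.3% and CAAAG in 48.6%. Neither the Btnl4 nor the Btnl6 window held any of these 3 motifs. A search for CACCC, a core read by Klf factors that occurs in 52.0% of windows, found 3 matches in Btnl4, 2 in Btnl6, 1 in Ermap and 0 in Btnl1. GATAA was not particular to Ermap among the members, since the window of Btnl2 held 2 matches. Nor were TTTAT and CAAAG particular to Btnl1, which held 1 match of each. Ermap held 2 TTTAT and 1 CAAAG, which the capitals above do not mark as such, and Btnl9 held 2 and 3. These matches say which letters are present and nothing about binding.

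Ermap was at 0.153, 0.0820, 0.352, 0.402 and 0.218 TPM (a transcript's share of its library, scaled for transcript length) in control libraries 1 to 5. In the ablated libraries it was at 15.6, 21.3, 26.2, 18.8, 7.32, 18.4 and 18.8 TPM. The groups were far apart: the lowest ablated library, number 5, was 18.2 times the highest control. The means were 0.241 ± 0.134 (SD, n = 5) and 18.1 ± 5.76 (SD, n = 7), a ratio of 74.9. Whole reads recovered from the TPM values numbered 5 to 23 per control library and 401 to 1492 per ablated library, so the control level rests on few reads. Ermap passed the minimum for testing (0.5 TPM in at least 5 libraries) through the ablated libraries alone. Groups that did not overlap, with the ablated libraries higher, were found for 1.33% of the 16164 genes tested, and nothing is read from that here because Ermap was chosen for its rise. On the log2(TPM + 0.5) scale its difference was 4.59, and the authors' deposited table lists a log2 fold change of 6.15. In bulk tissue, more cells with a transcript and more transcript per cell cannot be told apart.

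**Figure D1:**
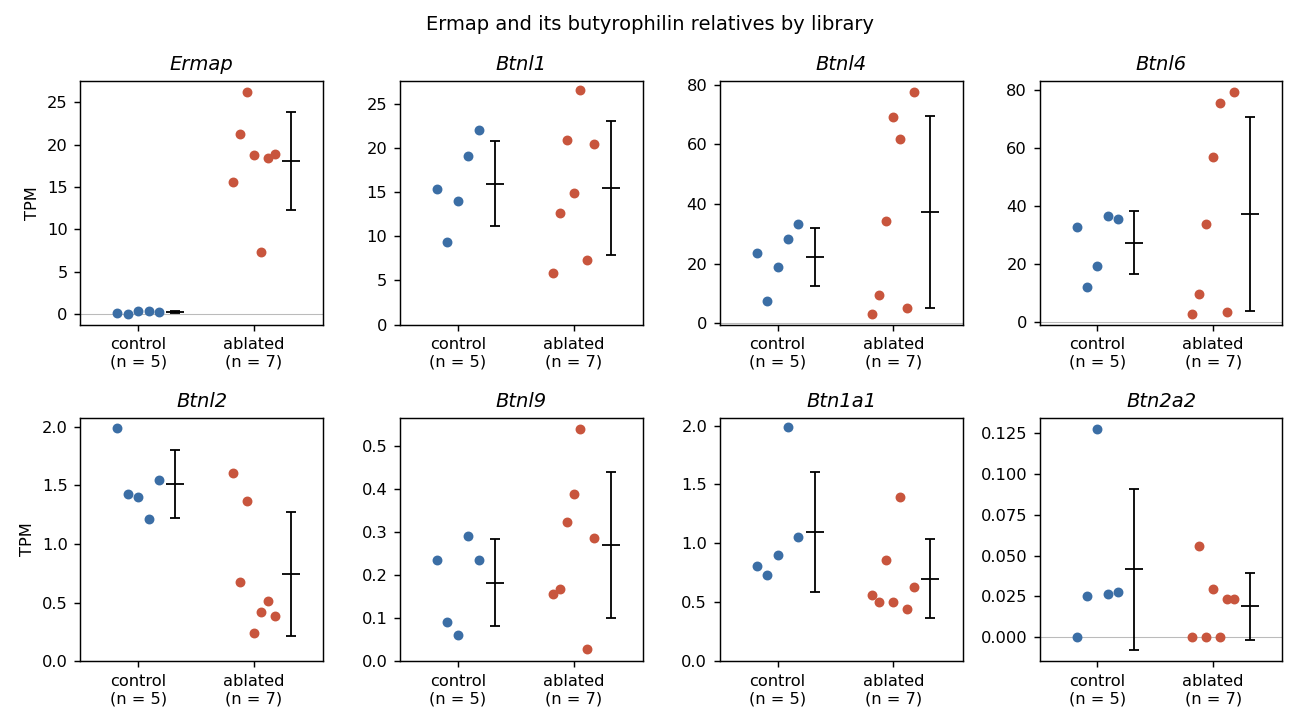
TPM of Ermap and 7 butyrophilin relatives in each library, with a separate linear axis per gene. Points are libraries (5 control, 7 ablated), and the black bar beside each group is the mean ± SD. Ermap is at 0.0820 to 0.402 TPM in control and 7.32 to 26.2 TPM in ablated libraries, while the groups of every relative overlap.

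None of the 7 relatives rose with it. Of the 5 above the minimum, 0 passed an adjusted p of 0.05 in limma, which called 1.43% of all genes tested (0.421% higher and 1.01% lower in the ablated group). The 2 under the minimum were read from the same fit with no minimum, which called 1.53% of 22842 genes, and neither passed there. At an unadjusted p under 0.05 limma held 1 of the 5, Btnl2, against 11.8% of all genes tested, and voom on recovered reads called 0 of the 7. In the authors' deposited table, which lists 1.13% of its genes under a false discovery rate of 0.05, the 7 relatives are at 0.383 or above. The groups overlapped for all 7. On the log2 scale, differences were negative for 5 relatives and positive for 2, and the median of the 5 tested was -0.30 on the log2 scale, against 0.03 over all genes tested.

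In the control libraries the order of mean TPM was Btnl6, Btnl4, Btnl1, Btnl2, Btn1a1, Ermap, Btnl9 and Btn2a2. Every neighbouring pair in it overlapped between libraries except Btnl1 with Btnl2, and Btn1a1 with Ermap. In the ablated libraries Ermap stood between Btnl4 and Btnl1, in the range of both: Btnl1 was at 5.80 to 26.5 TPM there. Ermap thus moved from the level of the barely detected relatives to that of the epithelial ones.

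**Figure D2:**
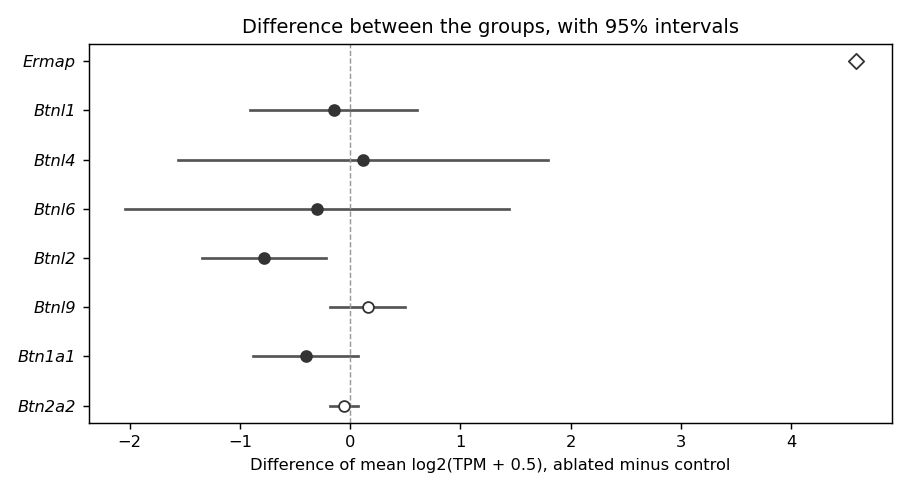
Difference of mean log2(TPM + 0.5), ablated minus control, for Ermap and 7 relatives, with 95% intervals from limma as bars (filled points: tested; open circles: read from the fit with no minimum; open diamond: Ermap, chosen for its rise and drawn with no interval). Ermap is at 4.59, and the intervals of all relatives except Btnl2 (-1.34 to -0.22) include 0.

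Btnl1, the shared partner of the gut pairs, was at 15.3, 9.36, 14.0, 19.0 and 22.0 TPM in control libraries. In the ablated libraries its lowest, median and highest values were 5.80, 14.9 and 26.5 TPM. The ablated libraries lay on both sides of the controls. The means were 15.9 ± 4.82 (SD, n = 5) and 15.5 ± 7.57 TPM (SD, n = 7). The log2 difference was -0.15 (95% interval -0.91 to 0.61), with an adjusted p of 0.944 in limma. The interval excludes any increase near that of Ermap.

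Btnl6, which pairs with Btnl1, was at 32.8, 12.3, 19.5, 36.8 and 35.5 TPM in control libraries. Its lowest, median and highest ablated values were 3.03, 33.9 and 79.3 TPM. The 3 lowest and the 3 highest of all 12 libraries were ablated ones. The means were 27.4 ± 10.9 (SD, n = 5) and 37.4 ± 33.4 TPM (SD, n = 7), so the mean TPM was higher in the ablated group while the mean log2 level was lower. The log2 difference was -0.30 (95% interval -2.04 to 1.44), with an adjusted p of 0.950 in limma, and the authors' deposited table lists a log2 fold change of 0.41. An epithelial score (the mean of Epcam, Cdh1, Krt8, Krt18, Krt19, Vil1 and Cdh17) was also added to the fit. The difference was then -1.0 and passed, with an adjusted p of 0.0133 in limma. That fit called 1062 of the 16164 genes tested, against 231 in the main fit. With a weight per library the difference of Btnl6 turned to 0.68 and did not pass (adjusted p = 0.429 in limma).

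Btnl4, the other partner, was at 23.7, 7.46, 18.9, 28.2 and 33.2 TPM in control libraries. Its lowest, median and highest ablated values were 3.30, 34.3 and 77.5 TPM. Ablated libraries 3, 4, 5 and 7 were above every control, and ablated 1 and 6 below every control. The means were 22.3 ± 9.84 (SD, n = 5) and 37.3 ± 32.1 TPM (SD, n = 7). The log2 difference was 0.11 (95% interval -1.57 to 1.79), with an adjusted p of 0.983 in limma. It was -0.23 without control library 2, -0.16 without ablated 4, -0.14 without ablated 5 and -0.19 without ablated 7, so single libraries set its sign. Such wide intervals leave changes of several fold undetectable for Btnl4 and Btnl6, but not one as large as that of Ermap. With a weight per library the difference of Btnl4 was 1.01 and did not pass (adjusted p = 0.234 in limma). The authors' deposited table lists a log2 fold change of 0.69 for Btnl4.

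Sequence sharing bears on both. Over the aligned length of their transcripts, 1459 of 1620 bases of Btnl4 and Btnl6 were the same (90.1%), and 1.58% of the 50-base windows of Btnl4 were also in Btnl6. Each shared more with Btnl5-ps, an annotated pseudogene of the cluster, at 3.68% of windows for Btnl4 and 3.82% for Btnl6. Btnl5-ps had higher levels than either, at 64.8 to 130 TPM in control and 13.4 to 188 TPM in ablated libraries. These shares count exact matches only, and Btnl5-ps was compared as a transcript of 1751 bases while its recovered length was 2593. How reads in shared stretches were assigned is not given in the sources used here. Values of these genes are therefore uncertain, to an extent not known here. No other pair of members shared a 50-base window, Ermap included.

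The wide spread of Btnl4 and Btnl6 within the ablated group followed an axis that ran through all libraries. Their highest ablated value was 23.5 and 26.2 times the lowest. Only 0.575% and 0.384% of genes tested had a larger SD of log2 levels in the ablated group. The first principal component of all genes tested held 40.1% of the variance, and it placed ablated libraries 7, 4 and 5 at one end and ablated 1 and 6 at the other, close to the order seen in Btnl4 and Btnl6. Epcam, a pan-epithelial adhesion molecule, varied 1.52-fold over the 12 libraries (1081 to 1646 TPM), while Cdh1, the epithelial cadherin, varied 8.55-fold in nearly that order. Reads of the 2 mitochondrial ribosomal RNAs made up 0.274% to 0.368% of TPM in ablated 4, 5 and 7, 2.50% and 0.895% in ablated 1 and 6, and 0.527% to 0.994% in controls. Their part in the Btnl values was not tested.

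**Figure D3:**
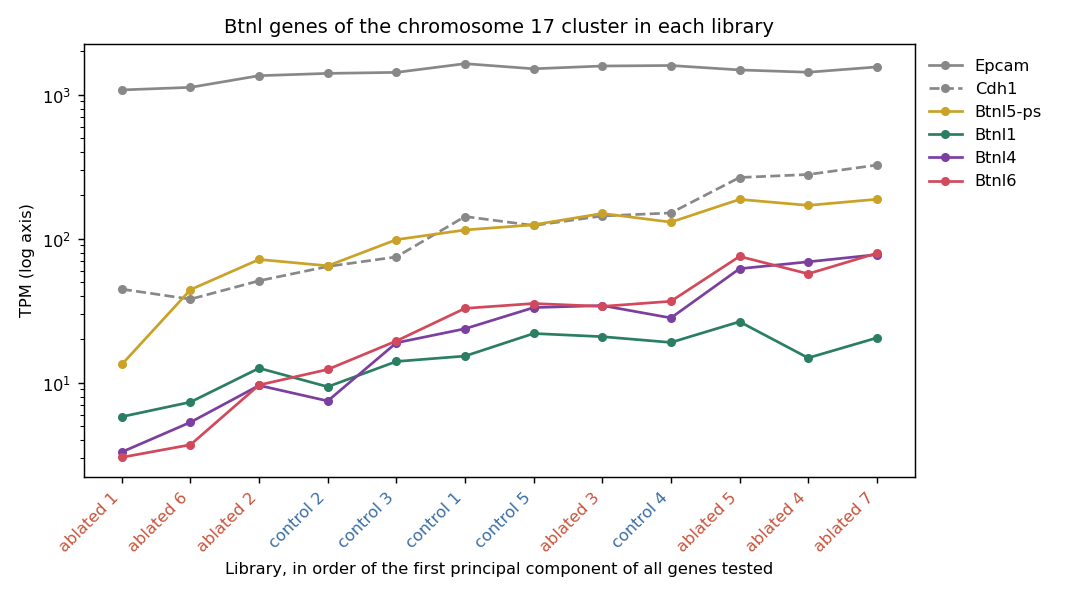
TPM on a log axis of Btnl1, Btnl4, Btnl6, the pseudogene Btnl5-ps and the epithelial genes Epcam and Cdh1 in the 12 libraries, ordered by the first principal component of all genes tested (blue names: control, red names: ablated). Btnl4 and Btnl6 climb from 3.30 and 3.03 TPM in ablated 1 to 77.5 and 79.3 TPM in ablated 7, while Epcam stays between 1081 and 1646 TPM.

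Btnl1 varied less along that axis, 4.57-fold. The ratio of Btnl4 to Btnl1 was 0.797 to 1.55 in control and 0.568 to 4.65 in ablated libraries. That of Btnl6 to Btnl1 was 1.32 to 2.15 and 0.505 to 3.87. The RNA of the partners was therefore far from a fixed ratio to Btnl1 in the ablated group: both ratios were above those of every control in ablated 4, 5 and 7, and below 1 in ablated 1, 2 and 6.

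Across the 12 libraries, Btnl1 nevertheless rose and fell with both partners. On log2(TPM + 0.5), Pearson's r with Btnl6 was 0.918 and Spearman's rho 0.832, with permutation p-values adjusted over 5 relations of 0.00055 and 0.0036. With Btnl4, r was 0.896 (adjusted permutation p = 0.00055) and rho 0.825 (adjusted permutation p = 0.0036). Without ablated 1 and 6, the libraries farthest from the median of Btnl1, r was 0.782 and 0.773. Within the 7 ablated libraries alone, r was 0.931 and 0.902, each with an adjusted exact permutation p of 0.0288; the 5 controls are too few for a value of their own. Of the genes tested, 0.297% had a higher r with Btnl1 than Btnl6 did, and 0.885% a higher r than Btnl4.

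Btnl1 also followed the epithelial score, with r = 0.786 (adjusted permutation p = 0.00263) and rho = 0.797 (adjusted permutation p = 0.0048). That r was 0.639 without ablated 1 and 6, and 0.853 within the ablated libraries (adjusted exact permutation p = 0.0317). The share of all genes tested with a higher r was not computed for this score. Its genes varied unequally, Cdh1 8.55-fold and Epcam 1.52-fold, and Cdh1 nearly followed the first principal component. The part of that component in the relation was not tested. No relation passed with Btnl2 (r = -0.17, rho = -0.20; adjusted permutation p = 0.602 and 0.529). None passed with the mean of Cd3e, Cd8a, Itgae and Trdc, genes of intraepithelial T cells (r = -0.33, rho = -0.20; adjusted permutation p = 0.370 and 0.529). Without ablated 1 and 6 these were -0.22 and -0.24.

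Btnl2, the T cell inhibitor of the cluster, was at 1.99, 1.43, 1.40, 1.21 and 1.55 TPM in control libraries, from 39 to 49 reads. In the ablated libraries it was at 1.61, 0.680, 1.37, 0.238, 0.421, 0.517 and 0.384 TPM, from 7 to 44 reads. Ablated 1 and 3 lay within the range of the controls and the other 5 below every control. The means were 1.51 ± 0.291 (SD, n = 5) and 0.746 ± 0.531 TPM (SD, n = 7). The log2 difference was -0.78 (95% interval -1.34 to -0.22) with an adjusted p of 0.210 in limma. With a weight per library it was -0.99 and passed, with an adjusted p of 0.0130 in limma. That fit called 1092 of the 16164 genes tested, against 231 in the main fit. Summed levels of 16 antigen-presenting and B cell genes were 417 to 917 TPM in control and 240 to 1707 TPM in ablated libraries; 0 of the 14 tested passed (3 at an unadjusted p under 0.05), and their median was -0.35. The part of such cells in the Btnl2 values was not tested.

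Btn1a1 was at 0.806, 0.736, 0.906, 1.98 and 1.05 TPM in control libraries. Its lowest, median and highest ablated values were 0.445, 0.561 and 1.40 TPM. Control 4 was the highest of all. The log2 difference was -0.40 (95% interval -0.88 to 0.08), with an adjusted p of 0.533 in limma.

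The last 2 relatives were close to the limit of detection. Btnl9, which is known from endothelium, was at 0.235, 0.0909, 0.0619, 0.291 and 0.235 TPM in control libraries and at 0.0283 to 0.540 TPM (median 0.285) in ablated ones, from 1 to 16 reads. Its log2 difference was 0.16 (95% interval -0.18 to 0.50), with an adjusted p of 0.831 in limma without a minimum. It was 0.32 with 0.1 added to TPM instead of 0.5, 0.33 in voom on recovered reads and 0.54 in the authors' deposited table. Btn2a2 had at most 5 reads in any library, was at 0 in 1 control and 3 ablated libraries, and did not exceed 0.128 TPM. Its log2 difference had a 95% interval of -0.18 to 0.07 in limma without a minimum. The 0.5 added to TPM compresses fold changes at such levels, so these intervals do not bound the fold change of Btnl9 or Btn2a2. For Btn2a2 the authors' deposited edgeR comparison lists a log2 fold change of -1.06 (false discovery rate 0.793), and voom on recovered reads gave -0.70. Even differences of that size were not detectable at this depth.

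Around Ermap, no tested neighbour differed by nearly as much. The nearest gene, Zfp691, a zinc finger gene on the same strand 1.26 kb past the end of Ermap, was at 7.16 ± 0.834 TPM (SD, n = 5) in control and 7.71 ± 1.54 TPM (SD, n = 7) in ablated libraries. Its log2 difference was 0.09, with an adjusted p of 0.916 in limma. Svbp, which codes for a partner of the vasohibins and starts 5.30 kb away on the other side, differed by 0.13 (adjusted p = 0.874 in limma). Slc2a1, the glucose transporter of red cells and many other cells, differed by 0.30 (adjusted p = 0.880 in limma). Of the 10 nearest genes with a value, 6 were tested and 0 passed (1 at an unadjusted p under 0.05 in limma). Over all genes tested, 1.43% passed and 11.8% were at an unadjusted p under 0.05 in limma, so these counts say little about the locus. The differences of the 6 were all positive, from 0.09 to 0.47, the highest in Tmem269 (adjusted p = 0.313 in limma).

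**Figure D4:**
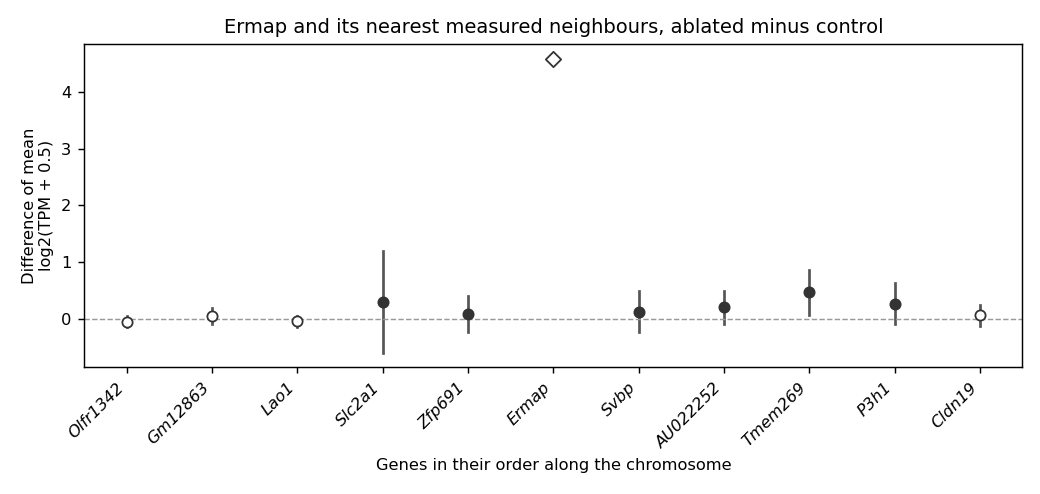
Difference of mean log2(TPM + 0.5), ablated minus control, of Ermap (open diamond, no interval) and the 5 nearest measured genes on each side, in chromosome order, with 95% intervals from limma as bars (filled points: tested; open circles: below the minimum, read from the fit with no minimum). The 6 tested neighbours lie between 0.09 and 0.47, and Ermap is at 4.59.

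Genes beside the other members did not pass either, and voom on recovered reads called none of these neighbours. With 1.43% of all genes tested passing, counts this small say little about these places. In the chromosome 17 cluster, 0 of 10 tested neighbours passed (1 at an unadjusted p under 0.05), with differences from -0.71 in H2-Eb2, a class II histocompatibility gene, to 0.51 in Notch4, a Notch receptor of endothelium. Beside Btn1a1 and Btn2a2, 0 of 7 passed, and beside Btnl9, 0 of 6, with 0 at an unadjusted p under 0.05 in both.

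The gene whose levels were most like those of Ermap over the 12 libraries was Gt(ROSA)26Sor, the transcript of the Rosa26 locus that holds the toxin receptor allele (Pearson r = 0.967 of log2 levels, as a description). It was at 1.30, 1.02, 1.47, 2.78 and 2.52 TPM in control libraries and at 22.6, 42.9, 32.9, 21.3, 31.4, 41.1 and 20.2 TPM in ablated ones. The groups did not overlap for either gene, and that gap is part of the r. However, within the ablated group they were not in the same order: Ermap was highest in ablated 3 and Gt(ROSA)26Sor in ablated 2. Sh3pxd2a (r = 0.946), a scaffold of invadopodia, and Bace1 (r = 0.942), the β-secretase, came next. They differed far less, from 6.74 to 10.1 TPM and from 11.9 to 14.6 TPM in the group means. In all, 19 genes (0.118% of the others tested) had an r of at least 0.9 with Ermap. No relative was among the 3 genes most like Ermap.

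For Btnl4 and Btnl6 such genes were many, at 1159 (7.17%) and 1055 (6.53%). The nearest were Tbc1d20, Narf and Oaz1 for Btnl4 (r = 0.988, 0.987 and 0.987) and Echs1, Eef2 and Arpc4 for Btnl6 (r = 0.991, 0.988 and 0.988). These are widely used genes, among them a translation elongation factor (Eef2) and an enzyme of fatty acid oxidation (Echs1). Btnl1 had 113 (0.699%), led by Prkcsh (r = 0.967), Gpr108 (r = 0.964) and Tmbim6 (r = 0.963). Btnl2 had 10, led by Faap20 (r = 0.946), Tapbp, which loads peptides onto class I molecules (r = 0.929), and Chrm4, a muscarinic receptor (r = 0.922). Btn1a1 had 1, Bach2, a lymphocyte repressor (r = 0.934), followed by Ceacam20 (r = 0.899) and Retnla (r = 0.895). Other than those of Btnl1, relations of the members with one another were not tested.

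Genes of the biology around these members were read from the same limma fit in 6 lists: further relatives, 2 of red cells and 3 of the epithelium and its T cells. Voom on recovered reads called 0 genes of these 6 lists. Over all genes tested, 1.43% passed and 11.8% were at an unadjusted p under 0.05 in limma. Of 23 further B7 and butyrophilin relatives in the table, 9 were tested and 0 passed in either direction (2 at an unadjusted p under 0.05), with a median log2 difference of -0.12. Btnl5-ps (-0.24, adjusted p = 0.944 in limma) and Icosl, the ligand of the costimulator ICOS (0.47, adjusted p = 0.356 in limma), had the highest levels. Most Skint genes, butyrophilin relatives of skin and thymus, were barely detected, and 5 genes of the list were at 0 throughout.

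For the red cell context of Ermap, 13 of 16 erythroid lineage genes were tested and 0 passed (0 at an unadjusted p under 0.05), with a median of 0.07. Their summed level was 136 to 191 TPM in control and 90.1 to 173 TPM in ablated libraries. Differences were positive for 9 of those tested and negative for 4, and the globins did not share a direction. Hba-a1, an α-globin, was at 14.4 ± 8.96 (SD, n = 5) and 16.6 ± 7.91 TPM (SD, n = 7). Hbb-bs was at 4.16 ± 3.84 and 4.88 ± 3.59 TPM. Lower means in the ablated group were found for Hba-a2 (9.21 ± 4.91 and 4.57 ± 1.20 TPM) and Hbb-b1 (6.60 ± 4.49 and 4.63 ± 2.59 TPM). Klf1, an erythroid transcription factor, was at 1.38 ± 0.261 and 1.55 ± 0.761 TPM. Gata1, the master regulator of the lineage, did not exceed 0.0714 TPM in any library. Of 27 red cell membrane and blood group genes, 18 were tested and 0 passed (1 at an unadjusted p under 0.05; median 0.11). Other genes of the lineage list that many cell types also use had higher levels, among them Tfrc, the transferrin receptor, at 30.6 to 65.3 TPM and Fech, an enzyme of heme synthesis, at 12.9 to 40.3 TPM in ablated libraries. The part of red cells or their precursors in the Ermap values was not tested.

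For the gut context of the Btnl pairs, 0 of 20 colonic epithelium genes passed (3 at an unadjusted p under 0.05; median 0.17), and the summed levels were 22282 to 29679 TPM in control and 22478 to 36046 TPM in ablated libraries. Of 16 epithelial transcription factors, 0 passed (1 at an unadjusted p under 0.05; median -0.12). Hnf4a was at 306 ± 25.1 and 298 ± 37.5 TPM, and Cdx1 at 374 ± 43.3 and 318 ± 51.4 TPM (SD, n = 5 and 7). Of 22 tested genes of intraepithelial and γδ T cells, 0 passed (1 at an unadjusted p under 0.05), 19 had negative and 3 positive differences, and the median was -0.25. Trdc, the constant region of the δ receptor chain, was at 1.45 ± 0.595 (SD, n = 5) and 0.857 ± 0.655 TPM (SD, n = 7), a log2 difference of -0.60 with an adjusted p of 0.522 in limma.

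As a check of the labels, 10 of 12 neuron genes passed an adjusted p of 0.05 in limma as lower in the ablated group (1.01% of all genes tested did) and 0 as higher. The differences of all 12 were negative, with a median of -1.95. Uchl1, a neuronal ubiquitin hydrolase, went from 41.8 ± 15.5 (SD, n = 5) to 6.93 ± 2.56 TPM (SD, n = 7). Smooth muscle, endothelium, adipocyte, enteric glia and posterior Hox lists had 0 members that passed, with medians of 0.07, 0.19, -0.08, -0.52 and -0.05 and 0, 1, 0, 4 and 0 members at an unadjusted p under 0.05; voom on recovered reads called 2 of the 8 glia genes and 0 of the other 4 lists.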

How the data were processed

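RNA was measured in 12 colon libraries. Per the labels' protocols, RNA was extracted with Trizol, poly(A)-selected and made into directional libraries; per the submitters' processing notes, bcl2fastq 2.17, HISAT, featureCounts and mm10 were used, with no version given for the others. The deposited values are TPM per gene, made by the authors by a method not given in the sources used here; the per-sample values equal those of the series table. The authors' deposited edgeR comparison gives for each gene a log2 fold change, the F statistic (a score), the average log2 CPM, a p-value and its false discovery rate.

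Members and gene lists were chosen with earlier results of these data known. The 16164 genes that reached 0.5 TPM in 5 or more libraries entered limma 3.58.1 (R 4.3.3; trend) as log2(TPM + 0.5), two-sided, with Benjamini-Hochberg adjustment over all of them and 95% intervals. A fold change on this scale understates that of low genes. Read depth was recovered from the steps of the TPM values: a length was found for 22840 of 22842 genes, with 99.99% of values within 0.01 of a whole read, and depth was 13.4 to 26.9 M reads. Then 1 read per kilobase is worth 0.0697 to 0.129 TPM. Permutation tests of correlations used 100000 resamples, or all pairings for 7 libraries (Python 3.11.15, SciPy 1.17.1). Alignments used Biopython 1.88. Besides the members, genes named are drawn from the 3 most correlated with each tested member (predicted models left out). They are also drawn from 5 neighbours on each side of each gene group, and from each list's called members or those with the highest means. Epcam, Cdh1, Trdc, Hba-a1, Hba-a2, Hbb-bs, Hbb-b1, Klf1, Gata1, Hnf4a and Cdx1 were named after their values were seen. The fit was checked on simulated data. Alternatives changed the pseudocount, minimum, scaling, weights, covariates, test and libraries. A few genes within these rules are left out.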

Additional observations from a re-analysis of the deposited data

Results flagged for a closer look

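Of 16 groups of libraries examined, 2 held a library far from the rest of its group; chance gives about 1 in 20. Btn1a1 in control 4 was at 1.98 TPM, with the other controls at 0.736 to 1.05 TPM, and the gap was 0.746 of the range of the group against a critical value of 0.71. Btn2a2 in control 3 was at 0.128 TPM, with the other controls at 0 to 0.0277 TPM, a gap of 0.783 of the range, which rests on 5 reads.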

How the results depend on the processing

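The log2 difference of Ermap was 3.87 to 6.21 over 21 alternatives. Because Ermap was chosen for its rise and its groups lay far apart, its unchanged direction is no test of that rise. Of the relatives, none passed in any alternative except Btnl2 with a weight per library (-0.99, adjusted p = 0.0130 in limma; range over 21 alternatives 0.0130 to 0.448) and Btnl6 with the epithelial score (-1.0, adjusted p = 0.0133; range 0.0133 to 0.992). Signs turned for Btnl1 (0.14 with a weight per library; without single libraries -0.32 to 0.046, above 0 without ablated 1), Btnl6 (0.68 with a weight per library; without single libraries -0.62 to 0.13, above 0 without ablated 1 or ablated 6) and Btnl4 (-0.56 with the epithelial score; without single libraries -0.23 to 0.54). The difference of Btnl4 was highest with a weight per library, at 1.01, and did not pass there (adjusted p = 0.234 in limma). The cause of the turned signs was not tested. Counts of genes called (231; 68 higher, 163 lower) were 349 with no minimum (273 lower), 1092 with a weight per library (654 and 438), 1062 with the epithelial score (505 and 557) and 89 with the replicate block (15 and 74). Leaving out 1 library gave 128 to 328 genes called, 23 to 126 higher and 105 to 202 lower. Correlations of same-numbered libraries were -0.27 to 0.36, which cannot show whether the library numbers pair the samples. The replicate block called 0 relatives. The relations of Btnl1 with Btnl4, Btnl6 and the epithelial score passed with a pseudocount of 0.1, in the ablated libraries alone and without each single library, the alternatives run for them; leaving out 1 library, r with Btnl2 was -0.34 to 0.00443 and with the T cell genes -0.54 to 0.0101, above 0 without ablated 1. A minimum of 1 TPM left no value for Btn1a1, Btn2a2 and Btnl9. Depth limits Btn2a2, Btnl9 and the control level of Ermap.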
